A study of Homo sapiens with 44 samples.

Results

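The TRIM genes, named for the tripartite motif of their proteins, were taken as every symbol in the deposited count table that consists of the letters TRIM and digits and nothing more. This rule found 67 of 40663 symbols, and 51 other symbols that begin with the same letters, such as TRIM16L and the read-through gene TRIM6-TRIM34, lay outside it. Bulk RNA was sequenced from Ccd-18Co, a line of human colon fibroblasts, in 44 libraries that form 11 groups of 4 replicates. Cells were kept without serum for 72 h and were then left unstimulated or received 1 of 10 cytokines for 24 h. TNF, OSM, IL-13, IL-17A, IL-22, IL-6, IFNα, IFNγ and TGF-β1 were given at 10 ng/ml and IL-1β at 0.1 ng/ml by the labels. For IL-1β the legend of the study names a lower dose than the labels, and the difference could not be settled here. All groups, the unstimulated cells included, come from 1 line at up to passage 20 and went through the same serum-free step. The labels do not state whether replicates came from separate cultures, so p-values measure only the spread between these libraries, which may be technical.

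TRIM proteins carry a RING finger, B-box zinc fingers and a coiled coil, and most act as E3 ubiquitin ligases, the enzymes that choose which proteins receive ubiquitin. The domain at the C-terminus binds the target and divides the family into groups, of which the PRY-SPRY group is the largest and includes retrovirus restriction factors and regulators of cytosolic RNA sensing. Type I interferon, such as IFNα, acts largely through interferon-stimulated response elements in promoters, whereas type II interferon, IFNγ, acts largely through gamma-activated sites.

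Libraries held between 742173 and 2213424 counts (median 1480882), and levels are given as CPM, counts scaled to the same normalized size in every library. The fibroblast markers COL1A1, DCN and LUM had more than 3 counts in all 44 libraries, and 9 of 10 fibroblast markers did so, with PDGFRB in 41. The epithelial markers EPCAM, CDH1 and KRT20, the leukocyte markers PTPRC and CD3E and the endothelial markers PECAM1 and CDH5 never exceeded 3 counts, whereas CD68 did in 34 libraries, CNN1 in 44 and MYH11 in 19. CD68, a lysosomal protein abundant in macrophages, was at 0 to 7.345 CPM in unstimulated libraries, 36.12 to 73.84 after IFNα and 8.306 to 20.65 after IFNγ, while PTPRC stayed at or under 1.603 CPM and CD3E at 0 in every library. The 10 fibroblast markers summed to 29280 to 41330 CPM in unstimulated libraries, 27020 to 35160 after IFNα and 17410 to 34380 after IFNγ. The part of these markers in the interferon results below was not tested. Over 6648 genes with a mean of at least 10 CPM, IFNγ replicate 2 and TGF-β1 replicate 4 stood apart, with a median correlation of 0.869 and 0.89 with the other libraries of their groups, against 0.909 to 0.956 for all other libraries. TGF-β1 replicate 4 was more like unstimulated replicate 4 (r = 0.917) than like any library of its own group (highest r = 0.908). This also held for some unstimulated, IL-6 and IL-22 libraries. Unstimulated replicate 1, for example, had r = 0.963 with IL-6 replicate 1 and at most 0.936 in its own group. Members described library by library are given with and without IFNγ replicate 2 or TGF-β1 replicate 4 where the result rests on these cytokines.

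Of the 67 TRIM genes, 29 passed the filter on low counts and were tested, among 9513 genes tested in all. The other 38 were not tested. Of these, 17 had no count in any library after rounding, namely TRIM10, TRIM15, TRIM40, TRIM42, TRIM43, TRIM48, TRIM49, TRIM50, TRIM51, TRIM54, TRIM55, TRIM63, TRIM64, TRIM67, TRIM74, TRIM75 and TRIM77. TRIM54, TRIM55 and TRIM63 among them are the muscle RING finger proteins. The remaining 21 had a few counts, with a highest count of 14 for TRIM36 in a TNF library. In 25 of the 38 no library exceeded 3 counts, so their transcripts were absent or barely detected at this depth. Among these, TRIM46 had 19 counts in total over 13 libraries. All 8 members with a COS box, a domain that binds microtubules (TRIM9, TRIM36, TRIM42, TRIM46, TRIM54, TRIM55, TRIM63 and TRIM67), were among the untested. TRIM11, TRIM41, TRIM61, TRIM65 and TRIM68 had between 79 and 175 counts in total over all libraries and also stayed below the filter. The others with counts were TRIM3, TRIM7, TRIM17, TRIM29, TRIM31, TRIM47, TRIM58, TRIM60, TRIM62, TRIM66, TRIM71, TRIM72 and TRIM73.

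In unstimulated cells, 5 of the 29 tested members stood above 20 CPM per kb of transcript and the other 24 lay under 10, with a median of 3.75 on the same scale. TRIM59, a RING protein of the endoplasmic reticulum membrane, had the highest level at 89.3 ± 19.7 CPM per kb (SD, n = 4). It was followed by TRIM35 at 37.1 ± 14.1, TRIM13, a ubiquitin ligase of the same membrane, at 33.2 ± 8.83, TRIM22 at 25.2 ± 5.26 and TRIM5 at 24.3 ± 2.03 CPM per kb (SD, n = 4). Those last 4 levels did not differ beyond their spread. TRIM27, TRIM38 and TRIM21 came next at 6.99 ± 1.41, 6.88 ± 0.501 and 6.48 ± 1.70 CPM per kb, and these also lay within each other's spread. The lowest level among tested members was that of TRIM14 at 1.07 ± 0.718 CPM per kb.

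**Figure D1:**
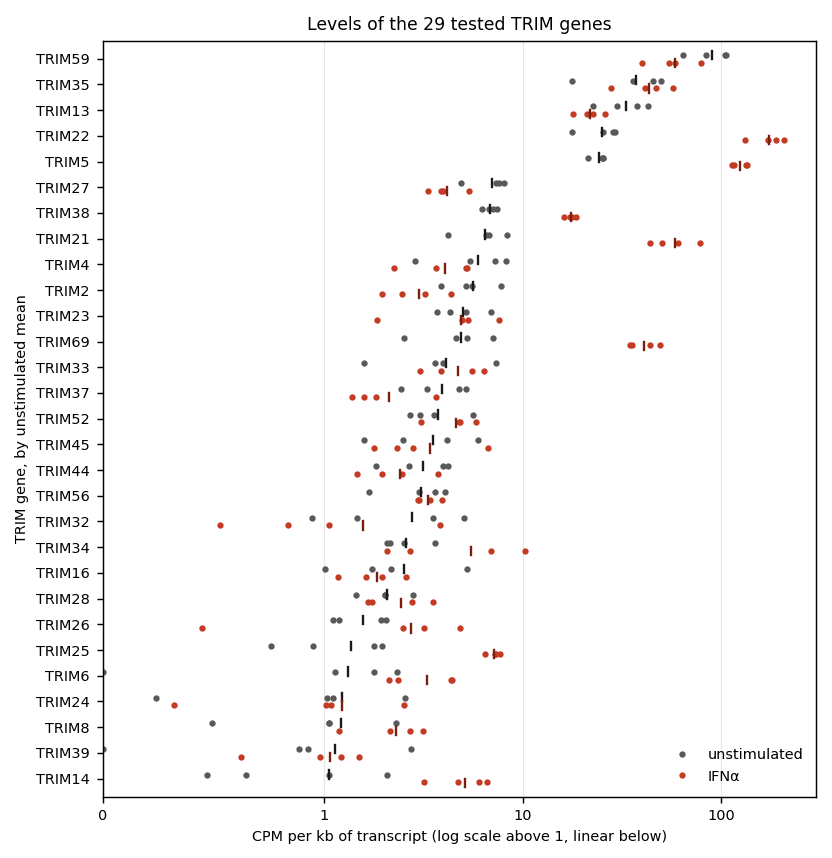
Levels of the 29 tested TRIM genes in CPM per kb of transcript (horizontal axis, logarithmic above 1 and linear below) for the 4 unstimulated (grey) and 4 IFNα (red) libraries, with a tick at each mean. Genes are ordered by their unstimulated mean, from 89.3 for TRIM59 to 1.07 for TRIM14, and TRIM22, TRIM5, TRIM21 and TRIM69 lie far to the right after IFNα.

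After IFNα the order changed. TRIM22 had the highest level of the family at 174 ± 31.4 CPM per kb and TRIM5 the next at 124 ± 11.4, followed by TRIM21 at 58.1 ± 15.1 and TRIM59 at 58.1 ± 16.3 (SD, n = 4). After IFNγ, TRIM22 was again first at 95.0 ± 18.8 CPM per kb, and TRIM5 was at 27.1 ± 11.6. The 67 members together took 0.198 to 0.221% of all counts in the IFNα libraries and 0.093 to 0.148% in the 40 others, so the IFNα libraries did not overlap with any other group. In the 4 IFNα libraries, the 7 members that were upregulated by IFNα held 55.3 to 67% of the family's counts. The share was 17.6 to 23.7% in unstimulated libraries and 36.3 to 56.5% in IFNγ libraries. These 7 were selected by the IFNα comparison itself, so a larger share after IFNα than in unstimulated libraries was fixed by that selection.

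In a test of all 11 groups at once, 12 of the 29 members varied (41.4%), beside 35.7% of all genes tested (edgeR's quasi-likelihood F test, Benjamini-Hochberg adjusted p under 0.05). These were TRIM22, TRIM5, TRIM69, TRIM21, TRIM38, TRIM14, TRIM25, TRIM2, TRIM59, TRIM13, TRIM16 and TRIM45. TRIM22 (adjusted p = 3.36e-23) and TRIM5 (adjusted p = 8.52e-17) had the smallest values. Each cytokine was then compared with the unstimulated cells, and all of these comparisons share the same 4 unstimulated libraries. 11 members (37.9%) were called in at least 1 of the 12 comparisons made, beside 29.3% of all genes tested, and 18 tested members were called in none. In bulk RNA, a change in the number of cells that make a transcript and a change in its amount per cell cannot be told apart.

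**Figure D2:**
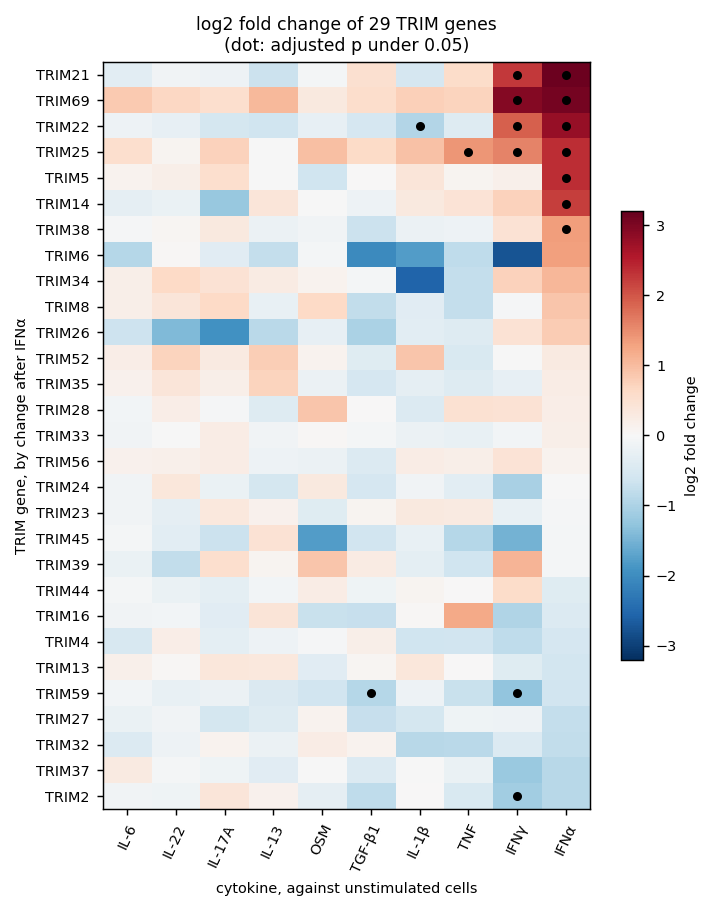
log2 fold change of each tested TRIM gene (rows, ordered by the change after IFNα) for each of the 10 cytokines against unstimulated cells (columns). Red is higher and blue lower than unstimulated, black dots mark an adjusted p under 0.05, and 13 of the 16 dots lie in the IFNα and IFNγ columns.

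IFNα upregulated 7 of the 29 tested members (24.1%) and downregulated 0, where 9.85% of all genes tested were called in either direction and 4.99% were called higher. With the additional threshold of an absolute log2 fold change above 1.5, it called 6 members, beside 3.98% of all genes. The 7 were TRIM5, TRIM14, TRIM21, TRIM22, TRIM25, TRIM38 and TRIM69, and each has a PRY-SPRY domain. Of the 36 PRY-SPRY members in the table, 15 were tested, with a median log2 fold change of 1.31, whereas the median was 0.20 over all 29 tested members and -0.01 over all genes tested. None of the 14 tested members of the other groups was called after IFNα, and 11 of the 29 members had an unadjusted p under 0.05. With DESeq2 the count was 8, since TRIM2 was called lower. With library totals in place of TMM, the split was 7 higher and 3 lower, with TRIM2, TRIM13 and TRIM59 as the lower ones.

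IFNγ upregulated 4 members (13.8%), TRIM21, TRIM22, TRIM25 and TRIM69, beside 5.52% of all genes called higher, and all 4 were also above 1.5 on the log2 scale, as were 3.53% of all genes in either direction. It downregulated TRIM2 and TRIM59 (6.9%), beside 5.13% of all genes called lower. In either direction 6 members (20.7%) were called, beside 10.6% of all genes. Without IFNγ replicate 2 the number was 7, with TRIM13 called lower in addition.

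The promoters of the members upregulated by IFNα are shown because these genes moved together and because the response element of type I interferon can be searched for in them. A 300-base window at the RefSeq start (GRCh38.p14) was matched for 53 of the 67 members and for 6 of the 7 upregulated by IFNα. They are given 5′ to 3′ on the strand of the gene, with matches to the ISRE-type letters GAAANNGAA on either strand in capitals. TRIM21 lies at chr11:4393653-4393952 (minus strand), TRIM5 at chr11:5685025-5685324 (minus), TRIM14 at chr9:98119173-98119472 (minus), TRIM69 at chr15:44736278-44736577 (plus), TRIM25 at chr17:56914000-56914299 (minus) and TRIM38 at chr6:25962552-25962851 (plus).
TRIM21: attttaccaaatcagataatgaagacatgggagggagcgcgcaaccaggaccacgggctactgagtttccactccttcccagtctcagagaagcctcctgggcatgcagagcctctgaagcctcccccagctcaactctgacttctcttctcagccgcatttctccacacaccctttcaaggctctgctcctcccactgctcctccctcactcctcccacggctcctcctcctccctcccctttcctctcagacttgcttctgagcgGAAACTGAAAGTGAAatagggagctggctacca
TRIM5: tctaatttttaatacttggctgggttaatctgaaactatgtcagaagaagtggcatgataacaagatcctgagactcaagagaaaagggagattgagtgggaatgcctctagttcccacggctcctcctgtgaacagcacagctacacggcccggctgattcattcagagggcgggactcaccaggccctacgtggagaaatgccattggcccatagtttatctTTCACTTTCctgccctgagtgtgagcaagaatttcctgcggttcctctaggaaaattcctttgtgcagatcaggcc
TRIM14: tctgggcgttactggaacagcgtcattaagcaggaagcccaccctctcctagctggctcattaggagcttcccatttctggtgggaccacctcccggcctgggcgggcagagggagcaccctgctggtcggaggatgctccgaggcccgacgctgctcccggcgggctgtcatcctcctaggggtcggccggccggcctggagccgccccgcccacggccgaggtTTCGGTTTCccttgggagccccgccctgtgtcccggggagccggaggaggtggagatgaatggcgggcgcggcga
TRIM69: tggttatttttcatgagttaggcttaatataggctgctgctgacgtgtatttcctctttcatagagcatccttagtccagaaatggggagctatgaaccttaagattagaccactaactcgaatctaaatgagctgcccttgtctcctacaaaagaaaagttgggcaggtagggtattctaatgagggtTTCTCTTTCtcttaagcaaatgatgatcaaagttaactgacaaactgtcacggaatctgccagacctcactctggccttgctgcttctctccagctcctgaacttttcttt
TRIM25: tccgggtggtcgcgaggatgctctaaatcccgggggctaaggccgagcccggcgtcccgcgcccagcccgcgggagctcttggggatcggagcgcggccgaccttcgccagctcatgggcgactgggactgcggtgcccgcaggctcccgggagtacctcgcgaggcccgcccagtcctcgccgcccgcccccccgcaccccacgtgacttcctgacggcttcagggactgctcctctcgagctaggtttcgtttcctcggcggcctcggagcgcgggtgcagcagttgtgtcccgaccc
TRIM38: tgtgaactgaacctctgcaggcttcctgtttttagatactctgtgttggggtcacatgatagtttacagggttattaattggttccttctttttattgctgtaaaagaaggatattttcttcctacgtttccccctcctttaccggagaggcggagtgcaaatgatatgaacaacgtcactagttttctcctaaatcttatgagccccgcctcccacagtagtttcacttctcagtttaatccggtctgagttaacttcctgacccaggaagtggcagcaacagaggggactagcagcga

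These letters occurred in the windows of TRIM21, TRIM5, TRIM14 and TRIM69, which is 4 of 6 (66.7%). In TRIM21 a pair of overlapping matches began 18 and 24 bases downstream of the start, and in the other 3 genes the match lay on the opposite strand, beginning at -26 in TRIM5, -25 in TRIM14 and -61 in TRIM69. Of all 35116 promoters in the reference table, 8.11% held a match, as did 18.9% of the 53 matched members. Of the 20 matched members that were tested, 45% held one, and of the 12 of these called after neither interferon, 33.3%. The share was also 66.7% for the 3 matched members upregulated by IFNγ, all among these 6. TRIM2, called lower after IFNγ, and TRIM44, higher with IFNγ than with IFNα, held ISRE-type letters too. The GAS-type letters TTCNNNGAA, searched on both strands, occurred in 0 of the 6 windows, in 7.66% of all promoters and in 13.2% of the matched members. TRIM2 held them as well. Such matches are descriptions of the letters and not of binding.

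TRIM22, a restriction factor of several viruses and the neighbour of TRIM5 on chromosome 11 (GRCh38, chr11:5689610-5737089), showed the smallest adjusted p of the family after both interferons. It was at 84.7, 82.4, 51.4 and 73.1 CPM in the unstimulated libraries, at 592, 494.5, 539 and 379 CPM after IFNα, and at 235, 222, 308 and 332.5 CPM after IFNγ. None of the IFNα libraries overlapped with the IFNγ libraries, and none of either overlapped with the unstimulated ones. The level was 6.86-fold higher after IFNα (log2 fold change 2.78 ± 0.215 SE, edgeR, adjusted p = 5.46e-14) and 3.75-fold higher after IFNγ (1.91 ± 0.211 SE, adjusted p = 2.81e-09; without IFNγ replicate 2, 2.03 and 2.1e-09).

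IL-1β had the opposite sign for this gene. TRIM22 was at 40.9, 33.8, 36.9 and 40.2 CPM after IL-1β, all below the lowest unstimulated library, and fell by 0.94 on the log2 scale (SE 0.219, edgeR, adjusted p = 0.00276). It was the only member called after IL-1β (3.45%), beside 7.38% of all genes tested. Its mean was also lower than unstimulated after TNF (54.9 ± 15.9 CPM), TGF-β1 (50.3 ± 4.95), IL-17A (49.8 ± 3.63) and IL-13 (46.6 ± 8.02; SD, n = 4), but none of these 4 differences was called.

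TRIM5, which binds the capsid of incoming retroviruses, was called after IFNα and not after IFNγ, and the difference between the interferons was itself called. Its unstimulated libraries stood at 71.5, 85.3, 85.8 and 84.0 CPM and its IFNα libraries at 385, 448, 380.5 and 449.6 CPM, a 5.10-fold rise with no overlap (log2 fold change 2.35 ± 0.204 SE, edgeR, adjusted p = 1.68e-12). After IFNγ it was at 68.5, 149.5, 72.8 and 74.1 CPM. The 3 IFNγ libraries other than replicate 2 thus lay within or just below the unstimulated range, and the log2 difference was 0.16 ± 0.202 SE (adjusted p = 0.70) and, without replicate 2, -0.15 (adjusted p = 0.664).

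TRIM21, a cytosolic antibody receptor that directs antibody-coated virus to the proteasome, had the largest estimated change of the 29 tested symbols after IFNα. It was at 16.2, 13.1, 12.7 and 8.20 CPM in unstimulated libraries, at 117, 151, 84.2 and 97.1 CPM after IFNα and at 53.5, 31.6, 59.8 and 98.3 CPM after IFNγ. The groups treated with interferon overlapped with each other but not with the unstimulated group. The rise was 8.86-fold after IFNα (log2 fold change 3.15 ± 0.480 SE, edgeR, adjusted p = 3.41e-06) and 4.80-fold after IFNγ (2.26 ± 0.474 SE, adjusted p = 7.24e-04). Without IFNγ replicate 2 the latter was 2.51 (adjusted p = 2.16e-04).

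TRIM69, which is known to restrict vesicular stomatitis virus, rose with both interferons. From 4.41, 8.02, 9.15 and 12.3 CPM in unstimulated libraries it reached 76.0, 61.2, 60.4 and 85.3 CPM after IFNα and 58.0, 85.6, 49.4 and 63.4 CPM after IFNγ. These ranges overlapped with each other and lay well above every library of the other 9 groups, of which the highest was 27.8 CPM after IL-13. The log2 fold change was 3.07 ± 0.382 SE for IFNα (edgeR, adjusted p = 3.78e-08) and 2.93 ± 0.383 SE for IFNγ (adjusted p = 1.48e-07), or 2.79 without IFNγ replicate 2 (adjusted p = 1.13e-06).

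TRIM25, the ubiquitin ligase known for activating the RNA sensor RIG-I, was called after 3 cytokines, IFNα, IFNγ and TNF, as was TRIM22 after IFNα, IFNγ and IL-1β. Unstimulated libraries held 10.3, 4.37, 11.3 and 5.47 CPM and IFNα libraries 41.9, 44.1, 42.1 and 37.4 CPM (log2 fold change 2.37 ± 0.473 SE, edgeR, adjusted p = 2.77e-04). IFNγ libraries spread from 4.15 in replicate 2 over 15.8 and 32.1 to 44.1 CPM and overlapped with the unstimulated group (1.60 ± 0.475 SE, adjusted p = 0.0211). Without IFNγ replicate 2 the difference was 1.98 (adjusted p = 0.00162), and without IFNγ replicate 4 it was 1.14 and not called (adjusted p = 0.183), nor was it called without IFNγ replicate 3 or without replicate 2 or 4 of the unstimulated group (adjusted p = 0.07 to 0.0866).

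TNF raised TRIM25 to 16.2, 16.4, 30.0 and 22.0 CPM, above every unstimulated library (log2 fold change 1.41 ± 0.475 SE, edgeR, adjusted p = 0.0438). This was the only call for TNF (3.45%), beside 11.5% of all genes tested. It was lost without unstimulated replicate 2 (adjusted p = 0.148) or 4 (adjusted p = 0.124) and without TNF replicate 3 (adjusted p = 0.145) or 4 (adjusted p = 0.0731). TRIM25 shares exon sequence with C17orf67 on the same strand and DGKE on the opposite strand, and the library kit and counting are not stated to keep strand. C17orf67 had 6.11 ± 4.05 CPM in unstimulated cells and 5.75 ± 1.40 after IFNα, and DGKE 5.45 ± 5.53 and 5.41 ± 4.02 CPM (SD, n = 4). Neither was called for IFNα, IFNγ or TNF.

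TRIM14, a member without a RING finger that joins the antiviral adaptor MAVS at mitochondria, stood at 9.30, 2.92, 2.11 and 4.78 CPM in unstimulated libraries and at 27.0, 29.6, 14.3 and 21.2 CPM after IFNα. These did not overlap, and the log2 fold change was 2.22 ± 0.521 SE (edgeR, adjusted p = 0.00229). After IFNγ it was at 12.1, 3.32, 10.4 and 7.12 CPM, which overlapped with unstimulated libraries (0.74 ± 0.530 SE, adjusted p = 0.436, and 1.02 with adjusted p = 0.24 without IFNγ replicate 2). Exons of TRIM14 overlap with those of NANS on the other strand, and NANS was at 96.6 ± 15.8 CPM in unstimulated and 85.9 ± 17.0 after IFNα (SD, n = 4).

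TRIM38, known as a brake on TNF and Toll-like receptor signalling that acts on TAB2 and TAB3, had the smallest of the 7 changes but a narrow spread. Levels were 58.8, 67.1, 69.7 and 63.5 CPM in unstimulated libraries and 152, 175, 163 and 168 CPM after IFNα. The groups did not overlap, and the log2 fold change was 1.35 ± 0.264 SE (edgeR, adjusted p = 2.17e-04). IFNγ libraries, at 77.6, 128, 83.2 and 71.2 CPM, also lay above every unstimulated library, but the difference of 0.47 ± 0.265 SE was not called (adjusted p = 0.289), nor was that of 0.28 without IFNγ replicate 2 (adjusted p = 0.564). After TGF-β1 it was at 47.6, 21.3, 21.8 and 67.5 CPM, which was not called with all libraries (log2 fold change -0.685, adjusted p = 0.145) and fell by 1.04 on the log2 scale without TGF-β1 replicate 4 (adjusted p = 0.0165).

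**Figure D3:**
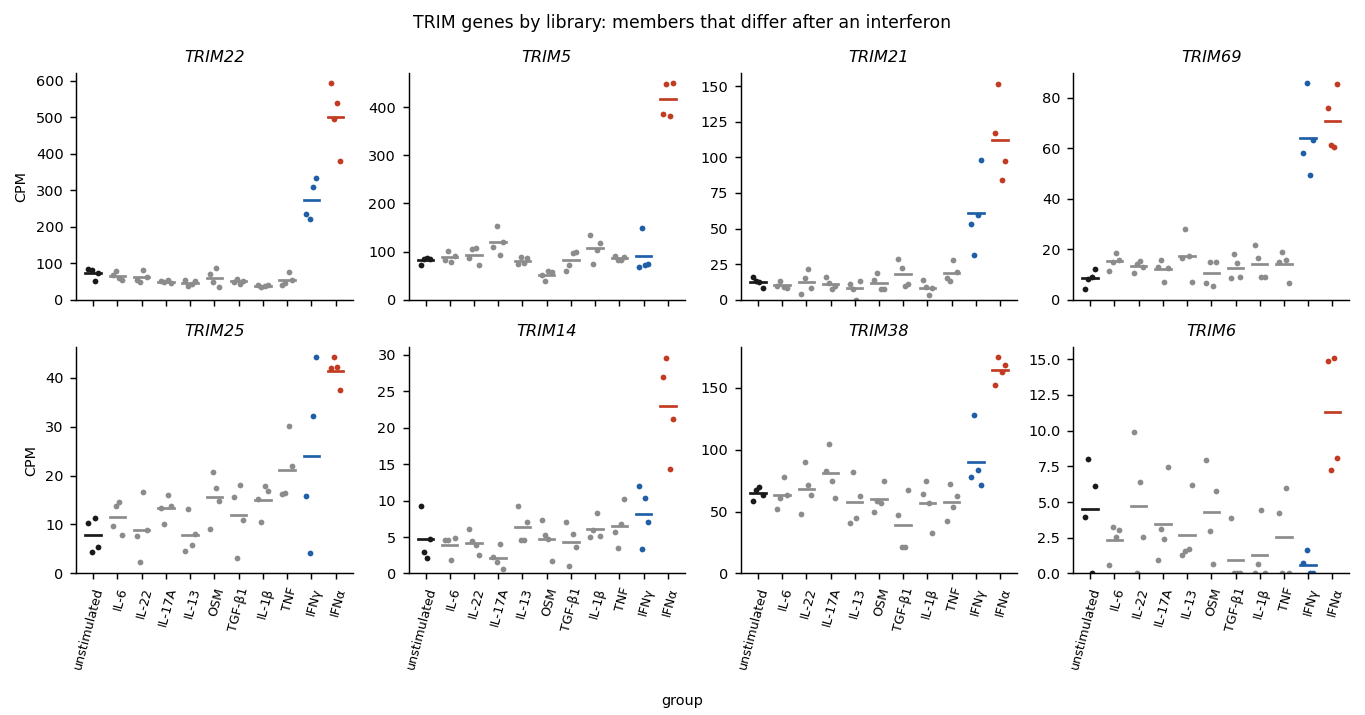
CPM in each library (points) and group mean (bars) for TRIM22, TRIM5, TRIM21, TRIM69, TRIM25, TRIM14, TRIM38 and TRIM6, with the 11 groups on the horizontal axis and linear vertical axes from 0. Black is unstimulated, blue IFNγ, red IFNα and grey the other cytokines. The IFNα points stand above all others for TRIM22, TRIM5, TRIM14 and TRIM38, and in TRIM5 the IFNγ points other than the one at 149.5 CPM lie at the unstimulated level.

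Compared directly, IFNα and IFNγ differed in 5 of 29 members (17.2%), beside 9.39% of all genes tested. TRIM5, TRIM6, TRIM22 and TRIM38 were higher with IFNα and TRIM44 was higher with IFNγ. The number moved between 2 and 7 as single libraries were left out, with 2 without IFNγ replicate 3 or 4. It was 3 without IFNα replicate 2 or 3 or IFNγ replicate 1. Without IFNγ replicate 2 it was 7, with TRIM59 (log2 1.05, adjusted p = 0.00529) and TRIM35 (1.17, adjusted p = 0.0229) also higher with IFNα. The difference was 4.56-fold for TRIM5 (log2 2.19 ± 0.203 SE, edgeR, adjusted p = 6.83e-11) and 1.83-fold for TRIM22 (0.87 ± 0.200 SE, adjusted p = 0.00252), with no overlap of libraries in either. Without IFNγ replicate 2 these were 2.52 and 0.77 (adjusted p = 1.41e-12 and 0.0161). TRIM38 was 1.83-fold higher (0.87 ± 0.261 SE, adjusted p = 0.0244), again without overlap, and 1.08 without IFNγ replicate 2 (adjusted p = 0.00768). The call was lost without IFNα replicate 2 or without IFNγ replicate 1, 3 or 4 (adjusted p = 0.0636 to 0.0965). The median log2 difference was 0.34 over the tested members and 0 over all genes.

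For the other 6 members called after an interferon, no difference between the interferons was called with all libraries. TRIM69 differed by 0.14 ± 0.335 SE on the log2 scale, TRIM21 by 0.88 ± 0.431 SE (edgeR, adjusted p = 0.232), TRIM25 by 0.78 ± 0.440 SE and TRIM14 by 1.48 ± 0.507 SE (adjusted p = 0.0566), each with the higher mean after IFNα. TRIM59 differed by 0.64 (adjusted p = 0.142) and TRIM2 by 0.23. Without IFNγ replicate 2 the differences of TRIM69, TRIM21, TRIM25, TRIM14 and TRIM2 were 0.30, 0.65, 0.41, 1.21 and 0.22 on the log2 scale and were not called. The libraries of TRIM14 did not overlap between the interferons, and DESeq2 called it.

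TRIM6, which makes free ubiquitin chains that activate the kinase IKKε, was a gene of few counts. It was at 3.92, 8.02, 0 and 6.15 CPM in unstimulated libraries, at 14.9, 7.24, 15.1 and 8.10 CPM after IFNα and at 0.753, 1.66, 0 and 0 CPM after IFNγ. The unstimulated libraries overlapped with both interferon groups, and neither interferon was called against them (edgeR, adjusted p = 0.493 for IFNα and 0.166 for IFNγ). Between the interferons there was no overlap, with 70 counts against 3 in total and a ratio of 19.2 (95% exact binomial interval 6.29 to 95.1, for counting error only), and edgeR gave an adjusted p of 0.0264, or 0.026 without IFNγ replicate 2. That call was lost without IFNα replicate 1 or 3 or IFNγ replicate 1, 3 or 4 (adjusted p = 0.0563 to 0.0939).

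TRIM34, next to TRIM6 and known to assist TRIM5 in retrovirus restriction, was at 8.32, 5.83, 4.93 and 4.78 CPM in unstimulated libraries and at 16.0, 23.7, 4.77 and 6.23 CPM after IFNα, which overlap (log2 fold change 1.07 ± 0.804 SE, adjusted p = 0.499). After IL-1β it had 0 counts in 3 libraries and 3.98 CPM in replicate 2, all below the unstimulated libraries. That was the largest estimated change after IL-1β among the tested symbols (-2.57 ± 0.994 SE, edgeR, adjusted p = 0.124), and it was called without IL-1β replicate 2 (adjusted p = 0.00692), where every remaining library was at 0. The 4 genes TRIM6, TRIM34, TRIM5 and TRIM22 lie together between positions 5596109 and 5938619 of chromosome 11 (GRCh38), where TRIM22 lies within the annotated span of TRIM5 on the opposite strand, and TRIM21 and TRIM44 lie elsewhere on this chromosome. Chromosome 11 carries 15 of the 67 members, of which 6 were tested. Reads that match several of these similar genes are split by the quantification. Over all 67 members, 11.94% of the values are not whole numbers (tolerance 1e-06), compared with 5.73% over the whole table. Values of 0 are whole, and 16 of the 67 members were at 0 in all libraries before rounding, beside 16928 of 40663 symbols. These percentages therefore do not compare the splitting of reads alone. The read-through gene TRIM6-TRIM34 was listed at 0 in all unstimulated, IFNα and IFNγ libraries.

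TRIM44, a member without a RING finger that carries a zinc finger like those of ubiquitin-specific proteases, was at 49.0, 32.3, 19.1 and 25.5 CPM after IFNα and at 69.3, 37.4, 73.7 and 69.8 CPM after IFNγ. IFNγ replicate 2 overlapped with the IFNα range, and the other 3 IFNγ libraries lay above it. The level was 1.97-fold higher with IFNγ (log2 difference of IFNα from IFNγ -0.98 ± 0.318 SE, edgeR, adjusted p = 0.0417), and -1.17 without IFNγ replicate 2 (adjusted p = 0.0153). The call was lost without IFNα replicate 2, 3 or 4 or IFNγ replicate 1, 3 or 4 (adjusted p = 0.0795 to 0.151). Neither interferon was called against unstimulated cells, which were at 51.4, 54.7, 23.9 and 34.8 CPM.

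**Figure D4:**
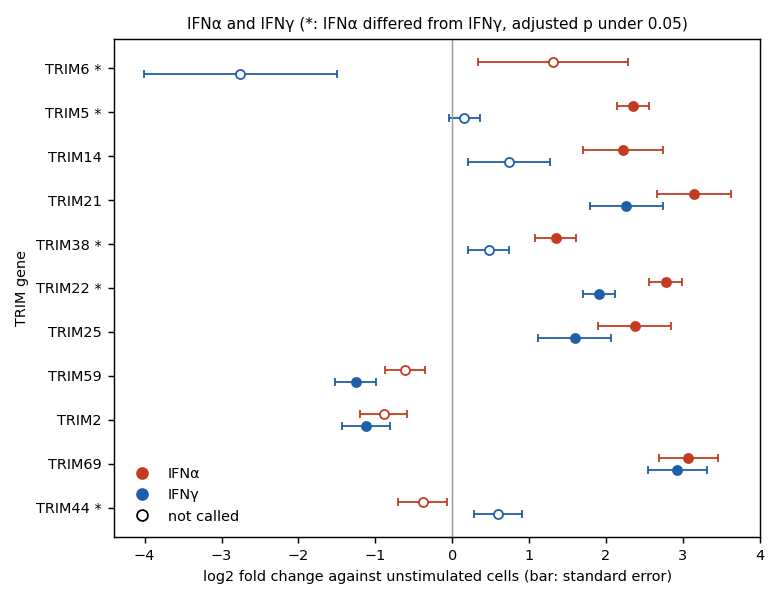
log2 fold change against unstimulated cells after IFNα (red) and IFNγ (blue), with standard errors, for the 11 TRIM genes called in an interferon comparison. Filled points passed an adjusted p of 0.05 and open points did not, and asterisks mark the 5 genes that differed between the interferons. TRIM5 is at 2.35 and 0.16, while TRIM69 is at 3.07 and 2.93. The fitted values of TRIM6 depend on the prior count, since it had 3 counts in all after IFNγ.

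Outside the PRY-SPRY group, the members called against unstimulated cells were lower. TRIM59, the member of highest unstimulated level, was at 243, 399.5, 321 and 402 CPM in unstimulated libraries and at 154, 252.5, 101 and 64.8 CPM after IFNγ. Replicate 2 was the only IFNγ library inside the unstimulated range. The level fell by 1.26 on the log2 scale (SE 0.267, edgeR, adjusted p = 8.73e-04) and by 1.66 without IFNγ replicate 2 (adjusted p = 9.47e-06). The call was lost with only the 8 libraries compared in the fit (adjusted p = 0.0527).

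TGF-β1 also lowered TRIM59, to 118, 135, 182 and 284 CPM, where replicate 4 overlapped with unstimulated libraries. The change was -0.92 ± 0.264 SE on the log2 scale (edgeR, adjusted p = 0.0277), -1.20 without TGF-β1 replicate 4 (adjusted p = 0.00321), and not called without TGF-β1 replicate 1, 2 or 3 or unstimulated replicate 2 or 4 (adjusted p = 0.0708 to 0.137). This was the only call for TGF-β1 (3.45%), beside 5.69% of all genes tested, and the median log2 fold change was -0.40 over the tested members and -0.02 over all genes. Without TGF-β1 replicate 4 the number was 2, with TRIM38 as the other.

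Exons of TRIM59 overlap on the opposite strand with SMC4, a condensin subunit of mitotic chromosomes. SMC4 was at 126.8 ± 17.7 CPM in unstimulated cells, 80.9 ± 13.9 after IFNγ (log2 fold change -0.65, edgeR, adjusted p = 0.0297), 56.0 ± 14.5 after IFNα (-1.175, adjusted p = 3.83e-05) and 95.9 ± 13.7 after TGF-β1 (-0.40, adjusted p = 0.276; SD, n = 4). The part of SMC4 reads in the TRIM59 values was not tested. After IFNα, TRIM59 was at 153, 223, 209 and 303 CPM, a difference of -0.62 ± 0.261 SE that was not called (adjusted p = 0.139). After TNF the mean of TRIM59 was 207.6 CPM, a difference of -0.72 ± 0.262 SE that was not called (edgeR, adjusted p = 0.0671). It was called lower without TMM (adjusted p = 0.0183), with all genes of any count (0.0113) and without unstimulated replicate 1 (0.0332).

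TRIM2, a ubiquitin ligase of the NHL group known in neurons for acting on neurofilament light chain, was at 26.4, 52.5, 35.2 and 37.6 CPM in unstimulated libraries and at 18.1, 17.4, 10.4 and 22.8 CPM after IFNγ. The ranges did not overlap, and the level fell by 1.12 on the log2 scale (SE 0.314, edgeR, adjusted p = 0.0131). The value without IFNγ replicate 2 was -1.10 (adjusted p = 0.0261), and the call was lost without unstimulated replicate 2 (adjusted p = 0.0915) or IFNγ replicate 3 (adjusted p = 0.0886). After IFNα it was at 13.2, 29.6, 16.7 and 21.8 CPM (-0.89 ± 0.307 SE, adjusted p = 0.0551), and after TGF-β1 at 21.1, 21.3, 20.0 and 22.8 CPM, all below the unstimulated libraries but not called (-0.825 ± 0.311 SE, adjusted p = 0.112, and -0.83 with adjusted p = 0.133 without TGF-β1 replicate 4).

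TRIM13, TRIM16 and TRIM45 varied over the 11 groups without a call in any single comparison. TRIM13 had its lowest group mean after IFNα (159 ± 24.3 CPM) and its highest after IL-17A (309 ± 26.8), with 241 ± 64.1 in unstimulated cells (SD, n = 4; F test, edgeR, adjusted p = 0.00564). TRIM16, which joins the autophagy of damaged membranes, was highest after TNF, at 20.5, 14.6, 26.3 and 17.7 CPM, whereas unstimulated libraries held 5.88, 7.29, 17.6 and 3.42 CPM (log2 fold change 1.21 ± 0.508 SE, adjusted p = 0.124). Unstimulated replicate 3 was the only one to reach into the TNF range, and without it TRIM16 was called (1.84, adjusted p = 0.0241). TRIM45, known to dampen MAP kinase signalling, had its lowest means after OSM (3.59 ± 2.81 CPM) and IFNγ (4.33 ± 3.84), beside 12.6 ± 6.83 in unstimulated cells (SD, n = 4), and was called for neither (edgeR, adjusted p = 0.0737 and 0.0842). For IFNγ it was called without IFNγ replicate 1 (-2.16, adjusted p = 0.0277), as it then was between the interferons (2.11, adjusted p = 0.0385), and not without IFNγ replicate 2 (-1.67, adjusted p = 0.0808).

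**Figure D5:**
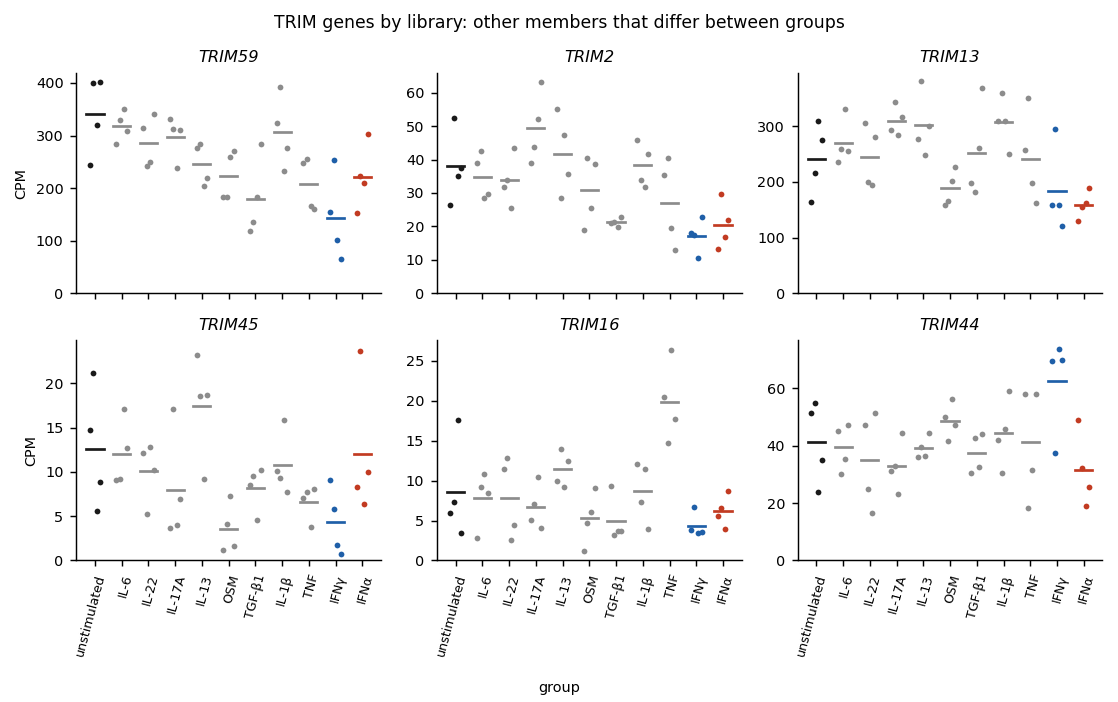
CPM in each library (points) and group mean (bars) for TRIM59, TRIM2, TRIM13, TRIM45, TRIM16 and TRIM44, with the 11 groups on the horizontal axis and linear vertical axes from 0. Black is unstimulated, blue IFNγ, red IFNα and grey the other cytokines. TRIM59 and TRIM2 are lower after IFNγ, with 1 IFNγ library of TRIM59 at 252.5 CPM, and TRIM16 has its highest mean after TNF.

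The 18 tested members called in no comparison were TRIM4, TRIM8, TRIM13, TRIM16, TRIM23, TRIM24, TRIM26, TRIM27, TRIM28, TRIM32, TRIM33, TRIM34, TRIM35, TRIM37, TRIM39, TRIM45, TRIM52 and TRIM56. Their log2 fold changes ranged from -0.89 (TRIM37) to 1.07 (TRIM34) after IFNα and from -1.52 (TRIM45) to 1.09 (TRIM39) after IFNγ. TRIM37, a ligase that limits centriole copies, was the nearest to a call with IFNγ (-1.19 ± 0.441 SE, edgeR, adjusted p = 0.0761; without IFNγ replicate 2, -1.15 and 0.116). TRIM24, TRIM28 and TRIM33 carry a PHD finger and a bromodomain and act on chromatin. TRIM28, the corepressor of KRAB zinc finger proteins, had log2 fold changes of 0.22 ± 0.496 SE after IFNα and 0.45 ± 0.497 SE after IFNγ. TRIM33, a regulator of SMAD signalling, changed by -0.06 on the log2 scale after TGF-β1. Of the 7 partners of these proteins listed, all tested, SMAD3 was lower after TGF-β1 (8.70 against 27.4 CPM in unstimulated cells, log2 fold change -1.65 ± 0.341 SE, edgeR, adjusted p = 0.00137). SMAD2 was lower after both interferons (-0.82 and -0.93, edgeR, adjusted p = 0.0328 and 0.0143). Of all genes tested, 3.08% were called lower after TGF-β1, 4.86% after IFNα and 5.13% after IFNγ.

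For the remaining cytokines no member was called by edgeR or DESeq2. This held for IL-6, IL-13, IL-17A, IL-22 and OSM, where the numbers of members at an unadjusted p under 0.05 were 1, 2, 4, 0 and 4. The shares of all genes tested that edgeR called were 0.0105% for IL-6, 3.93% for IL-13, 1.52% for IL-17A, 0% for IL-22 and 3.96% for OSM. For IL-22, 1037 genes had an unadjusted p under 0.05, and DESeq2 called 96 of the 3242 genes to which it gave an adjusted p. The member nearest to a call was TRIM5 after OSM, at 52.4, 39.7, 60.0 and 56.9 CPM, below every unstimulated library (log2 fold change -0.64 ± 0.206 SE, edgeR, adjusted p = 0.0672). After IL-17A it was above them instead, at 110.4, 152, 93.0 and 121 CPM (0.54 ± 0.200 SE, adjusted p = 0.194). In the comparison of TNF with IL-1β, which was made because both act through NF-κB, 0 members were called by edgeR or DESeq2 and 5 had an unadjusted p under 0.05, beside 1.15% of all genes called.

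TRIM genes under other symbols were counted in the same way. Of 7 such symbols, only PML and MID1 were tested. PML, the core protein of PML nuclear bodies, had 0 to 5 counts in unstimulated libraries (1.52 ± 1.39 CPM) and rose to 17.6 ± 4.26 CPM after IFNα (log2 fold change 3.44 ± 0.834 SE, edgeR, adjusted p = 0.00319) and 10.1 ± 2.05 after IFNγ (2.65 ± 0.833 SE, adjusted p = 0.0303; SD, n = 4). MID1, a microtubule-bound ligase, was instead higher after IL-1β (58.8 ± 7.02 against 19.4 ± 6.80 CPM, log2 fold change 1.59 ± 0.368 SE, adjusted p = 0.00261) and TNF (45.1 ± 6.33 CPM, 1.21 ± 0.369 SE, adjusted p = 0.0226). MID1 was called after neither interferon against unstimulated cells. It was called higher with IFNα than with IFNγ, as were 4.93% of all genes tested.

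The proteins that TRIM ligases act with were described from 3 further lists. Of 13 tested genes of RNA sensing, 4 rose after IFNα (RIGI, DHX58, ISG15 and TBK1), where 4.99% of all genes tested were called higher. RIGI alone rose after IFNγ, where 5.52% of all genes were called higher. RIGI was also called higher after IL-1β, TNF and TGF-β1, TBK1 after IL-1β and TRAF3 after TNF. RIGI, the sensor that TRIM25 modifies, went from 23.6 ± 4.89 CPM to 1391 ± 40.8 after IFNα and 112 ± 19.8 after IFNγ (SD, n = 4), changes of 5.86 and 2.22 on the log2 scale (edgeR, adjusted p = 1.76e-22 and 4.24e-10). MAVS, TRAF3, TRAF6, TAB2 and TAB3 were not called after either interferon.

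Among the genes of interferon receptors and signalling, the transcription factors IRF1 and IRF9 and USP18, which removes ISG15 from proteins, rose after both interferons. The receptor chain IFNGR1 rose after IFNα and the kinase JAK2 after IFNγ. Outside the interferons, IFNAR1 and IFNAR2 were called higher after IL-1β and TNF, IFNGR2 after TNF and IFNGR1 after OSM. Of 12 ubiquitin-conjugating enzymes, UBE2L6, which serves ISG15, was the one called after both interferons, from 20.7 ± 10.0 CPM to 448 ± 98.6 after IFNα and 349.9 ± 94.4 after IFNγ (SD, n = 4; log2 fold changes 4.40 and 4.04, edgeR, adjusted p = 1.43e-12 and 2.09e-11). UBE2D3 was also called after IFNα (0.46) and UBE2E1 after IFNγ (0.775) and TNF (0.93). Of all genes tested, 4.99% were called higher after IFNα, 5.52% after IFNγ and 5.37% after TNF.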

How the data were processed

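RNA-seq of the 44 libraries was quantified by the authors with kallisto 0.48.0, with FastQC 0.11.9, MultiQC 1.14 and build hg38 also named in the submitters' processing notes. Which transcriptome was used, how transcripts were summed to symbols and whether strand was kept are not given in the sources used here. The deposited values are estimated counts per gene symbol, not normalized, which were rounded to whole numbers here. Library totals ranged from 742173 to 2213424 counts, which limits the precision for members of few counts. Libraries were grouped by their labels, and no pair of replicates held identical values.

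Genes were filtered with filterByExpr, which left 9513, and scaled by TMM. All 44 libraries entered 1 model with 11 groups in edgeR 4.0.16 (R 4.3.3), and each comparison was a contrast in its quasi-likelihood test with Benjamini-Hochberg adjustment over all genes tested. The threshold for a call was an adjusted p of 0.05. CPM are counts scaled to the same TMM-normalized size in every library, and levels per kb were divided by the length of the canonical transcript in GENCODE 44 (GRCh38). Standard errors are those of the log2 fold change, and SDs are over the 4 replicates. The common biological coefficient of variation was 0.331, with 33 residual degrees of freedom. The code was tested on simulated data with known changes.

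The members and the lists were chosen with earlier results of these data known. Members called in a comparison with an absolute log2 fold change above 1 in it, in at least 1 comparison, were described library by library and the others by ranges and counts, and TRIM13, TRIM16, TRIM34, TRIM44 and TRIM45 were given more room after their values were seen. Correlation between libraries was computed on log2(CPM + 2). Alternatives were DESeq2 size factors or no TMM, other filters on low counts, the DESeq2 1.42.0 Wald test, only the 8 libraries compared, a fold threshold, the replicate number as a block and leaving out each library. Not every gene of the lists is reported here. Promoter windows came from RefSeq (GRCh38.p14).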

Additional observations from a re-analysis of the deposited data

Results flagged for a closer look

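For the 11 members called in at least 1 comparison, each group of 4 libraries was examined for a library far from the others, by Dixon's criterion at 95%. Of 121 groups, 7 met it, where chance gives about 1 in 20, or 6.05 groups. TRIM5 was at 71.49 CPM in unstimulated replicate 1, below the other unstimulated libraries (84.02 to 85.84 CPM), and at 149.5 CPM in IFNγ replicate 2, above the other IFNγ libraries (68.54 to 74.05 CPM). TRIM44 was at 37.38 CPM in IFNγ replicate 2, below the other IFNγ libraries (69.3 to 73.69 CPM). IFNγ replicate 2 is also the library least like its group over all genes. TRIM6 was at 4.447 CPM in IL-1β replicate 3 (others 0 to 0.6628 CPM), at 6.216 CPM in IL-13 replicate 4 (others 1.328 to 1.731 CPM) and at 3.899 CPM in TGF-β1 replicate 1 (others at 0). TRIM14 was at 1.898 CPM in IL-6 replicate 3, below the other IL-6 libraries (4.567 to 4.831 CPM).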

How the results depend on the processing

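Of the 21 calls of a member in a comparison, 13 were kept under every alternative, 8 were lost under at least 1, and 0 changed direction. With only the 8 libraries compared in the fit, the number of members called was 3 for IFNγ, with TRIM2, TRIM25 and TRIM59 lost, 0 for TGF-β1, 0 for TNF and 3 for IFNα against IFNγ. At an absolute log2 fold change above 1.5 it was 0 for IL-1β, 0 for TGF-β1, 0 for TNF and 2 for IFNα against IFNγ. Without TMM, which moved the median of all genes by -0.132 for IL-1β, -0.178 for IL-13 and -0.111 for IFNα on the log2 scale, IFNα had 10 members called (7 higher, 3 lower), TNF had TRIM59 lower in place of TRIM25, and IL-13 had 1 member called (TRIM22, -0.835, adjusted p = 0.0408), and with all genes of any count it had 1 (TRIM35, adjusted p = 0.0469). TRIM25 with TNF was not called without TMM (adjusted p = 0.0633) or with all genes of any count (adjusted p = 0.0703). With 1 library left out in turn, the number ranged from 7 to 9 for IFNα, 4 to 7 for IFNγ, 2 to 7 for IFNα against IFNγ, 0 to 2 for TGF-β1, 0 to 2 for TNF, 0 to 1 for OSM and 1 to 2 for IL-1β, was 0 throughout for IL-6, IL-13, IL-17A, IL-22 and TNF against IL-1β, and was 10 to 15 for the test over 11 groups. The OSM call was TRIM45 (-2.36, adjusted p = 0.037) without OSM replicate 3. With the replicate number as a block, 8 members were called for IFNα, with TRIM2 added (adjusted p = 0.0452), 6 for IFNα against IFNγ, with TRIM14 added (adjusted p = 0.0388), and 13 over the 11 groups, and the other counts were as before. Same-numbered libraries deviated together by r = -0.125 to 0.281, highest for replicate 1 with unstimulated replicate 1 (IL-6 0.281, IFNα 0.277, OSM 0.25, TGF-β1 0.167, but IL-17A -0.0857). No comparison was over 0.1 in every pair, so the numbers were not taken as pairs. An effect shared by some pairs only was not tested apart from the block. Over all genes tested, the block moved the number called from 145 to 223 for IL-17A and from 1013 to 1136 for IFNγ. For IL-22 it moved from 0 to 12, and for IL-6 it stayed at 1. The causes of these changes were not tested beyond the smaller number of libraries in some fits.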
